A study of Mus musculus with 18 samples.

Results

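The 10 carbonic anhydrase genes Car2, Car3, Car4, Car5b, Car6, Car8, Car9, Car12, Car13 and Car14 were examined, of 22792 genes in all, by matching their Entrez Gene identifiers to mouse symbols. The family was chosen by the measured rise of Car4 in tumors treated with the SHP2 inhibitor alone, so the values of that comparison are a description here and carry no test. The 18 libraries are bulk RNA-seq of whole primary tumors, 1 library per tumor. Each tumor grew from 300000 cells of 4T1, a mouse mammary carcinoma line, injected into the mammary fat pad of female Balb/c mice aged 8 weeks. All mice shared this host strain and cell line. The 5 Vehicle tumors received no inhibitor. The 4 PI3Ki tumors were treated with CLR457, a pan-PI3K inhibitor, the 4 SHP2i tumors with SHP099, an allosteric inhibitor of the phosphatase SHP2, and the 5 Combo tumors with both. Treatment ran from day 7 to day 21 after injection, when tumors were taken. The tumors contain host cells beside the carcinoma cells, and in such bulk RNA fewer cells of a type and less RNA per cell cannot be told apart.

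Carbonic anhydrases are zinc enzymes that interconvert carbon dioxide and water with bicarbonate and protons. The members differ in where they work: Car2, Car3 and Car13 are cytosolic, Car5b is mitochondrial, Car6 is secreted, Car4 is tethered to the outer membrane leaflet by a lipid anchor, and Car9, Car12 and Car14 span the plasma membrane with the catalytic domain outside the cell. Car8 belongs to the family by sequence but lacks the catalytic activity. In tumors the family is best known through Car9, a target of hypoxia-inducible factor that acidifies the surroundings of the cell.

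Library depth was even, from 21.16 M to 26.62 M counts per tumor with a median of 23.52 M. Keratins and other carcinoma epithelium markers were present in every tumor, with a summed level of 712 to 1400 CPM (counts per M counts, TMM scaled). Some libraries stood apart in their content of other cell types. The 18 skeletal muscle markers summed to 1080 to 2430 CPM in the PI3Ki tumors and to 107 to 217 CPM in all others, the 9 neutrophil markers reached 1860 CPM in PI3Ki 2 against 9.12 to 263 CPM elsewhere, and the 5 B cell markers varied from 0.438 to 1.3 CPM in Combo 1, 2 and 5 to 55.4 and 152 CPM in Combo 3 and Combo 4. In the other groups the B cell sum was 17.8 to 71.8 CPM in Vehicle, 1.36 to 127 CPM in PI3Ki and 1.79 to 3.3 CPM in SHP2i. These values are set beside the results they move with.

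Car4 was low in every Vehicle tumor and higher in every treated tumor. It is known from the capillary endothelium and from the surface of transporting epithelia. Its gene lies on chromosome 11 from 84957754 to 84966054 (GRCm38.p6). In Vehicle tumors 1 to 5 the Car4 level was 6.46, 4.22, 4.36, 3.69 and 2.66 CPM. In PI3Ki tumors 1, 2, 3 and 5 it was 6.79, 24.2, 10.3 and 27 CPM. All 4 lay above the highest Vehicle tumor, PI3Ki 1 only narrowly, and the PI3Ki tumors differed among themselves by a factor of 3.98. In SHP2i tumors 2 to 5 the level was 13, 21.1, 44.8 and 34.1 CPM, and in Combo tumors 1 to 5 it was 47.5, 45.0, 69.3, 17.8 and 24.5 CPM. No tumor of any treated group overlapped the Vehicle range, whereas the 3 treated groups overlapped one another. Group means were 4.28 ± 1.39 CPM in Vehicle (SD, n = 5), 17.1 ± 10 in PI3Ki (n = 4), 28.3 ± 14 in SHP2i (n = 4) and 40.8 ± 20.4 in Combo (n = 5). The depth behind these values was 61 to 140 counts per Vehicle tumor and 170 to 1698 counts per treated tumor.

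**Figure D1:**
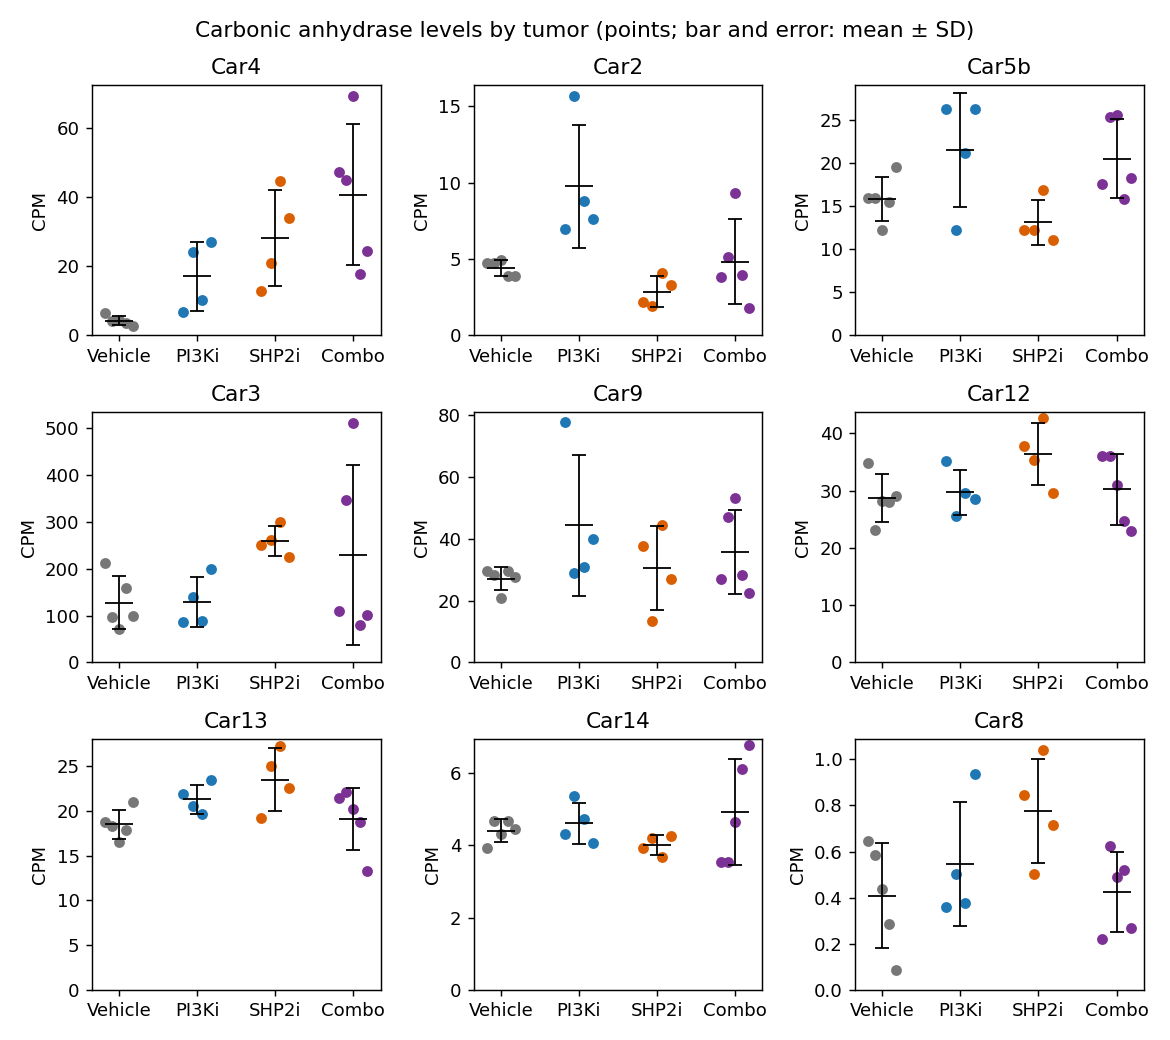
Level of the 9 tested carbonic anhydrases in CPM (y axis, linear from 0) in each tumor (points, in replicate order within each group) with the mean and SD of each group (bar and error), for Vehicle (n = 5), PI3Ki (n = 4), SHP2i (n = 4) and Combo (n = 5). Car4 is at 2.66 to 6.46 CPM in Vehicle and at 6.79 CPM or more in all treated tumors.

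Which tumors did not take part in choosing the family decides what can be tested for Car4. The difference of Combo from PI3Ki uses no level of the Vehicle and SHP2i tumors that took part, and addresses the addition of the SHP2 inhibitor to the PI3K inhibitor. Its SE and p are not independent of the choice, since the spread was estimated over all 18 tumors. There Car4 rose by 1.26 on the log2 scale (SE 0.451, 95% interval 0.29 to 2.23, edgeR quasi-likelihood test, adjusted p = 0.0359), with 3 of 5 Combo tumors above every PI3Ki tumor and the other two within their range. In this comparison 2 of the 9 tested members passed an adjusted p of 0.05, Car4 upward and Car2 downward, while 37.7% of all 15282 genes tested did so in either direction (19.9% upward, 17.8% downward). A call in this comparison is therefore common among all genes. The call for Car4 was lost without PI3Ki 1 (0.99, adjusted p = 0.0994), PI3Ki 3 (1.08, 0.0962), Combo 1 (1.2, 0.0595), Combo 2 (1.22, 0.0595) or Combo 3 (0.98, 0.0922), while the direction held in all 18 fits that each left out a tumor. It was also lost in a fit of these groups alone, which uses no Vehicle or SHP2i tumor (1.25, adjusted p = 0.088). Without Combo 3 and Combo 4 together it was lost as well (1.17, adjusted p = 0.0556).

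Against Vehicle, whose low Car4 values took part in the choice of the family, the Car4 values are a description and carry no test. The log2 difference was 2.00 with the PI3K inhibitor (SE 0.463) and 3.25 with both inhibitors (SE 0.46). Of the 8 other tested members, 0 were called with edgeR in PI3Ki against Vehicle, where DESeq2 called 1, limma voom called 3 and 3 had an unadjusted p under 0.05. In Combo against Vehicle 0 of the 8 were called with edgeR and with DESeq2, 1 with limma voom and 0 had an unadjusted p under 0.05. Over all genes 5.11% were called in PI3Ki (2.69% upward, 2.42% downward) and 43.6% in Combo (23.9% upward, 19.7% downward). The muscle marker sum of PI3Ki tumors 1, 2, 3 and 5 was 2380, 2430, 2170 and 1080 CPM, beside Car4 levels of 6.79, 24.2, 10.3 and 27 CPM. The part of muscle RNA in the PI3Ki levels was not tested.

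For the SHP2 inhibitor alone, the comparison by which Car4 was picked, the log2 fold change was 2.72 (SE 0.467), and all 4 tumors lay above every Vehicle tumor. Of the 9 tested members 1 was called there, upward, against 11.6% of all genes (5.05% upward, 6.54% downward), and nothing is read from this count. Combo exceeded SHP2i by 0.53 (SE 0.44) and SHP2i exceeded PI3Ki by 0.73 (SE 0.465), values that share the SHP2i tumors and are given without a test. The change with both inhibitors minus the sum of the changes with each was -1.47 on the log2 scale (SE 0.632), likewise without a test.

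Because the counts of genes of unequal length are not comparable, levels between members were set side by side per kb of exon. Car3 was highest in Vehicle at a mean of 44.5 CPM per kb, followed by Car9 (11.8), Car13 (8.04), Car12 (3.77), Car5b (2.49), Car4 (2.18), Car2 (1.83) and Car14 (1.73). Car5b, Car4, Car2 and Car14 were near one another relative to the spread of Car4, whose SD was 0.708 CPM per kb. Car4 stood behind Car5b in Vehicle, behind only Car3, Car9 and Car13 in PI3Ki (8.69 CPM per kb), and second in SHP2i (14.4) and Combo (20.8). Its neighbours Car13 in PI3Ki (9.28 CPM per kb) and Car9 in SHP2i (13.3) and Combo (15.5) lay within the SD of Car4. That SD was 5.09 in PI3Ki, 7.14 in SHP2i and 10.4 in Combo. Car3 was first in 17 of 18 tumors, and Car9 was first in PI3Ki 1.

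**Figure D2:**
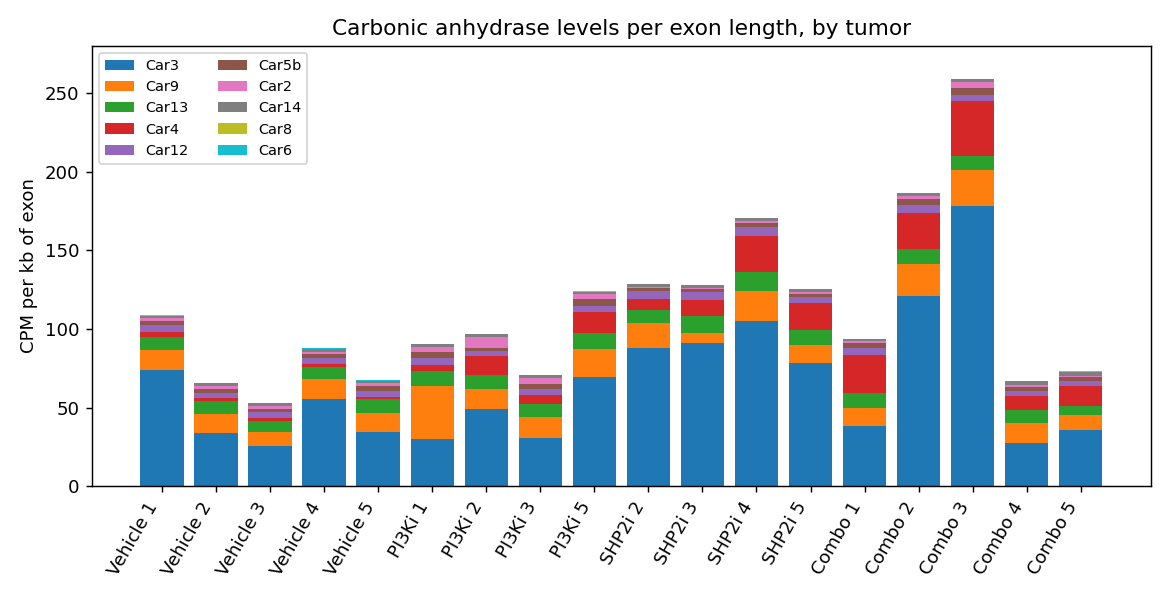
Level of each of the 10 members in CPM per kb of exon (y axis, stacked bars) in each of the 18 tumors (x axis). Car3 makes up the largest part in 17 of 18 tumors, and the Car4 part is thin in all Vehicle tumors and thickest in Combo 3.

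Among the cytosolic enzymes, Car2 was highest in PI3Ki and lowest in SHP2i tumors. Car2 is a fast and widespread isoform, abundant in osteoclasts and red cells, on chromosome 3 from 14886269 to 14900770. In Vehicle tumors 1 to 5 its level was 4.71, 4.73, 4.93, 3.86 and 3.88 CPM, and in PI3Ki tumors 1, 2, 3 and 5 it was 6.95, 15.7, 8.81 and 7.62 CPM. In SHP2i tumors 2 to 5 it was 2.17, 1.92, 4.08 and 3.27 CPM, and in Combo tumors 1 to 5 it was 3.85, 5.14, 9.30, 3.97 and 1.77 CPM. Every PI3Ki tumor lay above every Vehicle and every SHP2i tumor, and Combo 3 was the only Combo tumor inside the PI3Ki range.

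Car2 fell by 1.77 on the log2 scale in SHP2i relative to PI3Ki (SE 0.385, adjusted p = 0.00356), a call that stood in all 18 fits without a tumor, from -2 to -1.46. This was 1 of 2 members called lower in that comparison, where 12.8% of all genes were called lower, 11.6% higher and 24.5% in either direction. In Combo relative to PI3Ki it fell by 1.02 (SE 0.351, adjusted p = 0.0299), and this call was lost without PI3Ki 2 (-0.72, adjusted p = 0.147), Combo 1 (-0.95, 0.0622), Combo 4 (-0.95, 0.0646) or Combo 5 (-0.81, 0.0567) and in the fit of both groups alone (-1.03, 0.101). The difference of PI3Ki from Vehicle was 1.14 (SE 0.352) with an adjusted p of 0.0716, over the threshold in edgeR. DESeq2 (adjusted p = 0.0257), limma voom (0.0206), the fit of both groups alone (0.0199) and the fits without Combo 3 (0.0314), without Combo 5 (0.0299) and without Combo 3 and 4 together (0.0368) put it under. PI3Ki 2, with the highest Car2 level, also had the highest neutrophil sum and the highest sum of the 10 macrophage markers (3430 CPM, against 1830 to 2100 CPM in the other PI3Ki tumors). Its erythroid marker sum, mostly Hba-a2 and Hba-a1, was 6060 CPM, against 47.7 to 1180 CPM elsewhere. The macrophage sum was 1890 to 2450 CPM in Vehicle, 676 to 1510 CPM in SHP2i and 369 to 1430 CPM in Combo. The sum of the 18 skeletal muscle markers was 1080 to 2430 CPM in PI3Ki and 107 to 217 CPM in all other tumors. The part of these cell types in the Car2 levels was not tested.

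Car3, the cytosolic isoform of adipocytes and slow muscle, lies beside Car2 on chromosome 3 (14863538 to 14872381). Its level was 211, 96.9, 72.3, 159 and 98.5 CPM in Vehicle tumors 1 to 5, and 86.1, 140, 87.8 and 200 CPM in PI3Ki tumors 1, 2, 3 and 5. In SHP2i tumors 2 to 5 it was 251, 262, 300 and 224 CPM, all above the Vehicle and PI3Ki ranges, and in Combo tumors 1 to 5 it was 109, 346, 510, 79.4 and 102 CPM. The Combo tumors thus fell apart by a factor of 6.43, with Combo 2 and Combo 3 above all Vehicle tumors and the other three within their range. No difference that could be tested passed: it was 0.01 in PI3Ki against Vehicle (SE 0.474, adjusted p = 0.992), 0.85 in Combo against Vehicle (SE 0.449, 95% interval -0.12 to 1.81, adjusted p = 0.138) and 1.01 in SHP2i against PI3Ki (SE 0.503, 95% interval -0.07 to 2.09, adjusted p = 0.148). In a fit of SHP2i and PI3Ki alone the last value passed (1.00, adjusted p = 0.0238). Against Vehicle the SHP2i value was 1.02 (SE 0.472), given as a description.

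Car3 levels went with the 11 adipocyte markers, led by Fabp4 and Cfd. Their sum was 998 and 1740 CPM in Combo 2 and Combo 3 against 374 to 562 CPM in the other Combo tumors, 650 to 931 CPM in SHP2i, 294 to 635 CPM in Vehicle and 245 to 734 CPM in PI3Ki. Over the 18 tumors the mean log2 CPM of the markers and log2 CPM of Car3 had a Pearson r of 0.945 and a Spearman rho of 0.917, and r was 0.958 after the group means were removed. The 5 tested genes most like Car3 in this measure were Plin1, which coats lipid droplets (r = 0.963), Glb1l2 (0.959), Bche (0.949), Ephx2 (0.947) and Gpd1 (0.944). Of the 11 markers, 5 rose in Combo against Vehicle, where 23.9% of all genes rose. In PI3Ki against Vehicle 0 were called with edgeR, DESeq2 and limma voom, and 1 had an unadjusted p under 0.05. In SHP2i against Vehicle 0 were called with edgeR, 1 with DESeq2 and 6 with limma voom, and 6 had an unadjusted p under 0.05. In PI3Ki, 17 of the 18 muscle markers rose, led by Myh4, at 514 ± 202 CPM (n = 4) against 5.94 ± 10.7 CPM (n = 5) in Vehicle. Car3 differed by 0.01 in the same comparison, and the part of muscle RNA in the Car3 levels was not tested. The fat pad is the site of injection, and how much fat tissue each tumor piece held was not measured.

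Car13, the remaining cytosolic member on chromosome 3 (14641727 to 14663002), varied little within groups, by a factor of at most 1.66. Its level was 16.5 to 21.0 CPM in Vehicle, 19.6 to 23.4 CPM in PI3Ki, 19.2 to 27.3 CPM in SHP2i and 13.3 to 22.1 CPM in Combo. No comparison that could be tested passed, and the difference of Combo from Vehicle was 0.05 with a 95% interval of -0.22 to 0.32. Against Vehicle the SHP2i value was 0.35 (SE 0.131), with 3 of 4 SHP2i tumors above every Vehicle tumor, given as a description. Car13, Car3 and Car2 lie within the same stretch of chromosome 3. Over the 18 tumors r was -0.02 between Car2 and Car3 (0.541 after group means were removed), 0.184 between Car2 and Car13 (0.475) and 0.48 between Car3 and Car13 (0.413).

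Car5b, the mitochondrial isoform on the X chromosome (163976822 to 164028010), had its lowest group mean in SHP2i, where its range overlapped that of Vehicle. Its level was 15.9, 15.9, 12.2, 15.5 and 19.5 CPM in Vehicle tumors 1 to 5, 26.3, 12.2, 21.2 and 26.3 CPM in PI3Ki tumors 1, 2, 3 and 5, 12.2, 12.2, 16.9 and 11.0 CPM in SHP2i tumors 2 to 5, and 17.6, 25.3, 25.5, 15.8 and 18.2 CPM in Combo tumors 1 to 5. PI3Ki 2 lay within the SHP2i range, as did Combo 4, and all other PI3Ki and Combo tumors lay above it. Car5b rose by 0.65 in Combo relative to SHP2i (SE 0.215, adjusted p = 0.0389), the only member called there among the 8 other than Car4, where 22.1% of all genes were called (11.8% higher, 10.3% lower). It fell by 0.72 in SHP2i relative to PI3Ki (SE 0.225, adjusted p = 0.0275). Against Vehicle, Car5b differed in edgeR by 0.44 in PI3Ki (SE 0.211, adjusted p = 0.255) and by 0.37 in Combo (SE 0.2, adjusted p = 0.141). Limma voom put both under the threshold (0.68, adjusted p = 0.0187, and 0.53, adjusted p = 0.0277). The SHP2i value against Vehicle was -0.27 (SE 0.214), given as a description.

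Both edgeR calls of Car5b, in Combo against SHP2i and in SHP2i against PI3Ki, lay close to the threshold. The first was lost without Vehicle 1 (0.65, adjusted p = 0.0503), SHP2i 2 (0.61, 0.101), SHP2i 3 (0.62, 0.0817), SHP2i 5 (0.57, 0.11), Combo 2 (0.56, 0.0795), Combo 3 (0.56, 0.0752) or Combo 5 (0.69, 0.0502), with no filter on low counts (0.63, 0.0527) and without Combo 3 and 4 together (0.63, 0.0779). The second was lost without PI3Ki 1 (-0.61, 0.0801), PI3Ki 5 (-0.62, 0.0778), SHP2i 2 (-0.70, 0.0669), SHP2i 3 (-0.70, 0.0601) or SHP2i 5 (-0.66, 0.0759) and in the fit of both groups alone (-0.73, 0.0628).

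**Figure D3:**
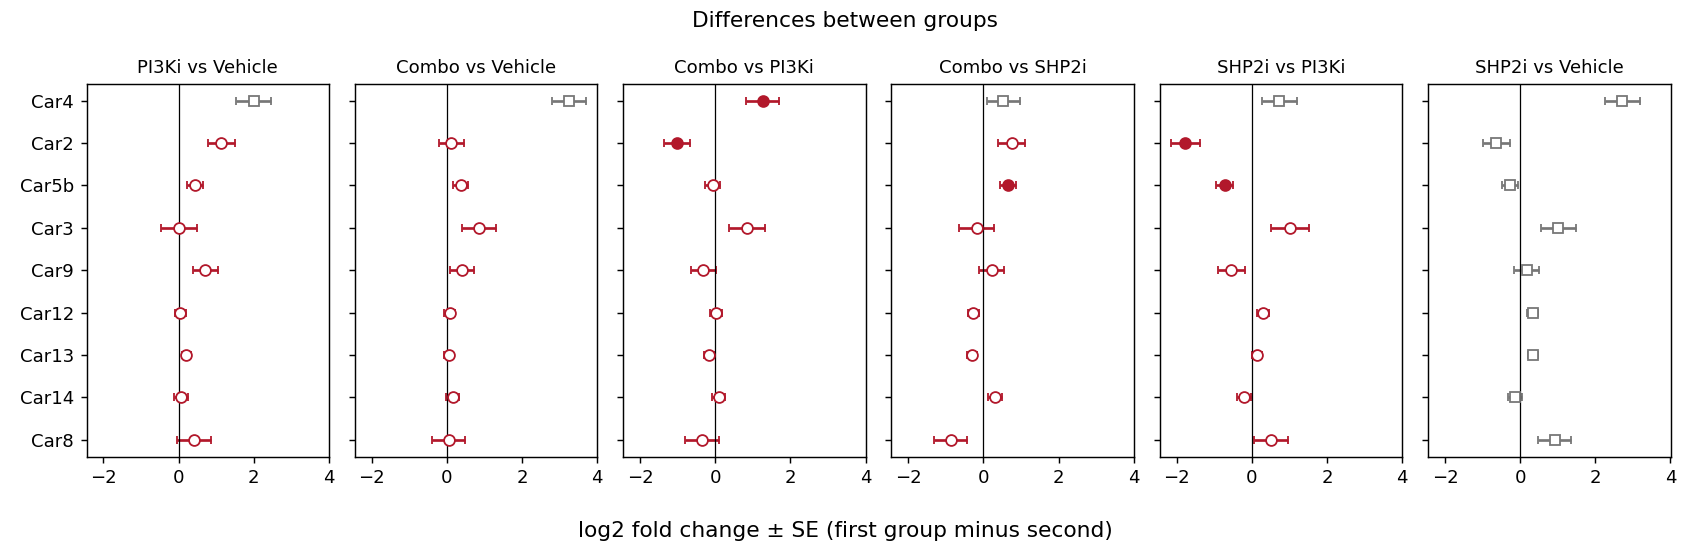
Log2 fold change (x axis, first group minus second) of the 9 tested members with its SE (error bars) in 6 comparisons. Filled red circles passed an adjusted p of 0.05, open red circles did not, and open grey squares are values given without a test because the choice of the family used them. Car4 lies right of 0 in all panels.

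The membrane-spanning enzymes showed no called difference in any comparison tested. Car9, on chromosome 4 from 43507026 to 43513729, was at 29.5, 28.1, 20.8, 29.5 and 27.6 CPM in Vehicle tumors 1 to 5 and at 77.6, 29.0, 30.9 and 39.8 CPM in PI3Ki tumors 1, 2, 3 and 5. It was at 37.7, 13.4, 44.3 and 26.8 CPM in SHP2i tumors 2 to 5 and at 27.1, 47.1, 53.0, 28.3 and 22.5 CPM in Combo tumors 1 to 5. The highest tumor of the series was PI3Ki 1 and the lowest SHP2i 3, and all treated groups overlapped Vehicle. In PI3Ki the difference from Vehicle was 0.71 (SE 0.334, 95% interval -0.01 to 1.43). The quasi-likelihood test gave an unadjusted p of 0.0481 and an adjusted p of 0.251, and limma voom put it under the threshold (0.90, adjusted p = 0.0454). In Combo it was 0.40 (SE 0.318, 95% interval -0.29 to 1.08, adjusted p = 0.331). The Car9 gene overlaps Arhgef39 and Tpm2 on the other strand, with 0 exon bases shared.

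Car12 was at 23.2 to 34.8 CPM in Vehicle, 25.6 to 35.1 CPM in PI3Ki, 29.6 to 42.7 CPM in SHP2i and 22.9 to 36.1 CPM in Combo. Combo differed from Vehicle by 0.07 (95% interval -0.23 to 0.38). The SHP2i value against Vehicle was 0.34 (SE 0.149), with 3 of 4 SHP2i tumors above every Vehicle tumor, given as a description. Car14 was at 3.92 to 4.69 CPM in Vehicle, 4.08 to 5.37 CPM in PI3Ki, 3.67 to 4.25 CPM in SHP2i and 3.53 to 6.78 CPM in Combo, and Combo differed from Vehicle by 0.16 (95% interval -0.21 to 0.53). Over the 18 tumors Car12 and Car14 ran in opposite directions, with r = -0.823, rho = -0.853 and r = -0.847 after group means were removed. Combo 4 and Combo 5 were the highest tumors for Car14 (6.13 and 6.78 CPM) and among the lowest for Car12 (24.7 and 22.9 CPM). Of the 2543 exon bases of Car14, 445 are shared with Aph1a on the opposite strand, and the strand setting of the counting is not given in the sources used here, so its level is uncertain.

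A pair of members was too low to judge. Car6, the secreted enzyme of saliva, had 0 to 9 counts per tumor and did not pass the filter on low counts. It had 13 counts over all Vehicle tumors, 15 over PI3Ki, 13 over SHP2i and 0 over Combo, where a count of 0 allows up to 3 counts over the group, or 0.026 CPM. Car8 passed the filter with 2 to 25 counts per tumor, a level no higher than 1.04 CPM. Its difference between Combo and Vehicle was 0.05 with a 95% interval of -0.89 to 0.99, so a change in either direction within that interval remains possible. The limit from a count of 0 covers counting error only.

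The 6 other carbonic anhydrase genes of the mouse were also low, from 0 to 50 counts per tumor over Car1, Car5a, Car7, Car10, Car11 and Car15. Car7, at 16 to 36 counts, passed as higher in Combo than in Vehicle (0.53, SE 0.204, adjusted p = 0.0439) and than in PI3Ki (0.67, SE 0.218, adjusted p = 0.022), and higher in SHP2i than in PI3Ki (0.67, SE 0.228, adjusted p = 0.04). Of the 5 tested among these 6 genes, DESeq2 called 0 in each of the 3 comparisons, and limma voom called 0 in Combo against PI3Ki. Calls upward were made for 23.9%, 19.9% and 11.6% of all genes in these comparisons. The test of whether the effect of one inhibitor depends on the other called 0 of the 8 members other than Car4 with edgeR, DESeq2 or limma voom. Over all genes edgeR called 2.47% (0.864% above and 1.61% below the sum of the single effects). Of the 8, Car13 alone had an unadjusted p under 0.05 in edgeR's quasi-likelihood test, at -0.50 (SE 0.186, adjusted p = 0.161).

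The genes most like Car4 over the 18 tumors were Chil3 (r = 0.935, rho = 0.915), Sim2 (0.929, 0.903), Sfrp1 (0.92, 0.858), Cryaa (0.916, 0.876) and Rnase2a (0.915, 0.946). Chil3 encodes a chitinase-like protein secreted by alternatively activated macrophages, and Rnase2a an eosinophil-associated ribonuclease. Since Car4 was picked for its difference between groups, r was also taken after group means were removed, where it was 0.942 for Chil3, 0.797 for Rnase2a, 0.771 for Cryaa, 0.726 for Sfrp1 and 0.677 for Sim2. Chil3 was at 0.174 to 1.71 CPM in Vehicle and at 1.48, 36.0, 3.78 and 24.2 CPM in PI3Ki tumors 1, 2, 3 and 5, where Car4 was 6.79, 24.2, 10.3 and 27 CPM. It was at 1.37, 3.06, 30.2 and 7.65 CPM in SHP2i tumors 2 to 5 and at 27.9, 58.7, 81.2, 14.0 and 10.6 CPM in Combo tumors 1 to 5. In each treated group the 2 tumors lowest for Car4 were also the 2 lowest for Chil3, and SHP2i 4 and Combo 3 were highest for both. Of the 10 macrophage markers, led by C1qa and Mrc1, 7 fell in Combo against Vehicle and 0 rose, where 19.7% of all genes fell. C1qa was at 551 ± 61.9 CPM in Vehicle and 126 ± 61.5 CPM in Combo, and Mrc1, the mannose receptor, at 178 ± 21.4 and 326 ± 235 CPM (n = 5 each). Of the 15 endothelial markers, led by Eng and Pecam1, 12 fell in Combo against Vehicle and 0 rose, against the same 19.7% of all genes, and their sum was 449 to 563 CPM in Combo and 776 to 950 CPM in Vehicle. Over the 18 tumors Car4 had r = 0.711 with the adipocyte list (0.718 after group means were removed), 0.675 with the secretory epithelium list (0.311), -0.508 with the macrophage list (0.625) and -0.495 with the endothelial list (0.208). With the other carbonic anhydrase genes it was 0.115 (0.597). Among the remaining cell type lists r was -0.272 for osteoclast (0.625), -0.363 for neutrophil (0.602) and -0.262 for erythroid (0.576). It was -0.614 for milk proteins (-0.002), -0.436 for B cell (0.02), -0.103 for carcinoma epithelium (-0.062) and -0.097 for skeletal muscle (0.132). The part of these cell types in the Car4 levels was not tested.

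**Figure D4:**
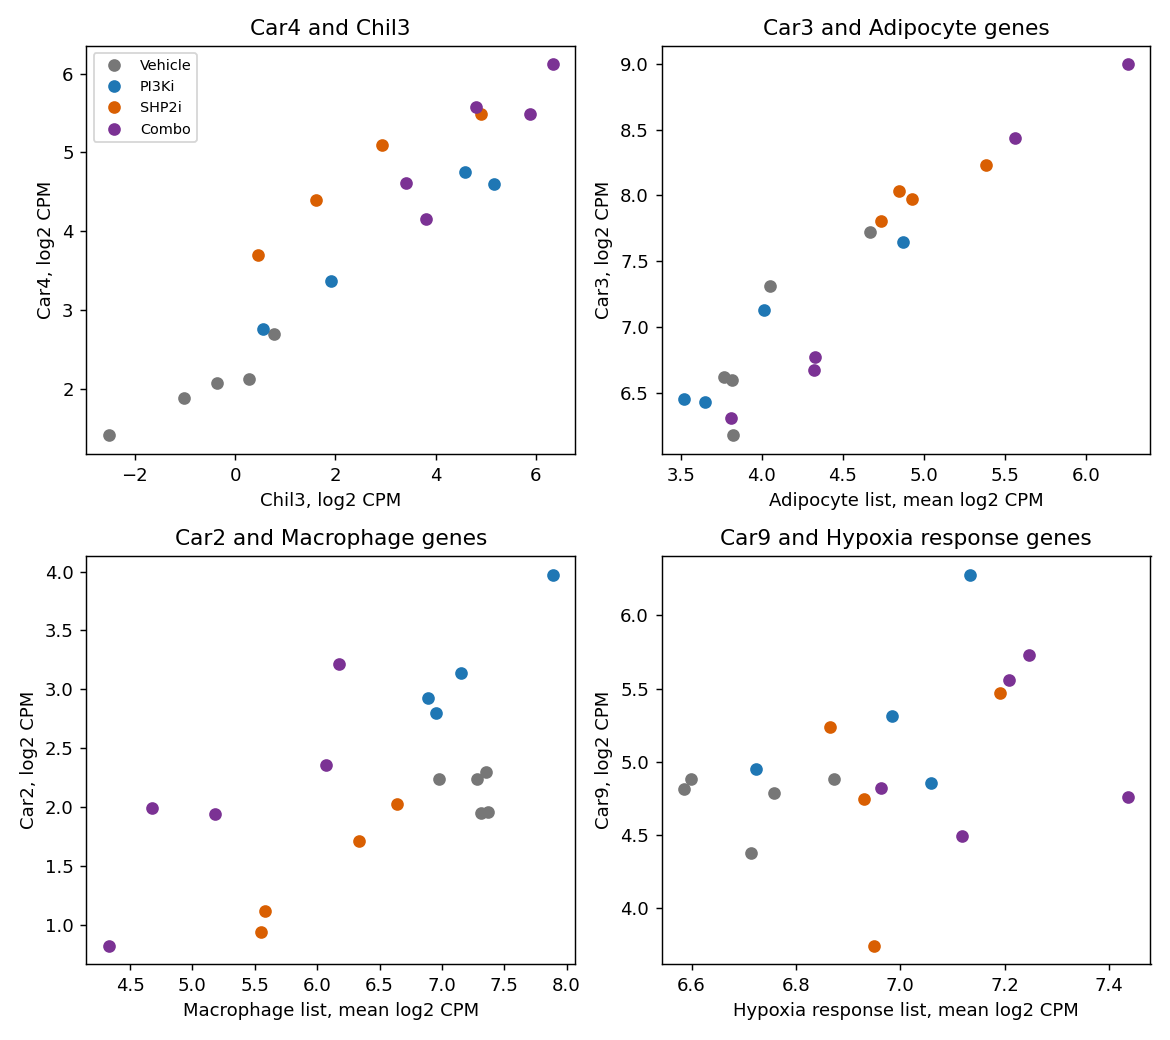
Log2 CPM of Car4 against log2 CPM of Chil3, and of Car3, Car2 and Car9 against the mean log2 CPM of the adipocyte, macrophage and hypoxia lists, 1 point per tumor (n = 18), coloured by group. Car4 with Chil3 (r = 0.935) and Car3 with the adipocyte list (r = 0.945) lie close to a line, and Car9 with the hypoxia list does not (r = 0.36).

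For Car2 the nearest genes were Ugcg, which starts glycosphingolipid synthesis (r = 0.962, rho = 0.965, 0.952 after group means were removed), Cbr3 (r = 0.931), Arid3a (0.922), Srgn, the proteoglycan of secretory granules (0.913), and Peli2 (0.905). With the 10 macrophage markers, r was 0.637 over all tumors and 0.888 after group means were removed, and with 7 osteoclast markers, led by Mmp9 and Ctsk, 0.68 and 0.835. With the 18 skeletal muscle markers, r was 0.79 over all tumors and 0.476 after group means were removed. In the same order it was 0.66 and 0.646 with the neutrophil markers and 0.589 and 0.651 with the erythroid markers. The carcinoma epithelium list went the other way (-0.337 and -0.282), as did the endothelial list (-0.155 and -0.06). The adipocyte (-0.056 and 0.542) and secretory epithelium (-0.394 and 0.123) lists changed sign. Nearest to Car12 were Mki67 (r = 0.867), Aspm (0.858), Cenpf (0.855), Ccdc30 (0.842) and Ugdh (0.839), and nearest to Car13 Iqgap3 (0.808), E2f7 (0.786), Cenpe (0.784), Cep295nl (0.781) and Diaph3 (0.77). For Car9 they were Adipor2 (0.828), Dnm1 (0.822), Hspa4l (0.778), Wnt10b (0.772) and Cdc14b (0.77), and for Car5b Ust (0.836), AI661453 (0.833), Prrg4 (0.828), Ppl (0.815) and Rbpj (0.801). For Car14 they were Mlycd (0.842), Marchf2 (0.841), Rabac1 (0.832), Igbp1 (0.828) and Khk (0.818), and for Car8, with its few counts, Fxyd2 (0.788), E230029C05Rik (0.762), Fyb2 (0.731), Dpf1 (0.718) and 1600020E01Rik (0.704).

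Car9 was set beside 25 genes of the hypoxia response, a list that leaves out the carbonic anhydrases. Of the 25, 3 rose and 0 fell in PI3Ki against Vehicle, 6 rose and 1 fell in SHP2i, and 13 rose and 1 fell in Combo, where the list's median log2 fold change was 0.55 against 0.02 over all genes. Over all genes 5.11%, 11.6% and 43.6% were called in these comparisons. Ndrg1 rose by 1.65 in Combo (SE 0.209, adjusted p = 1.41e-05), Egln3, a hypoxia-induced prolyl hydroxylase, by 1.27 (SE 0.108, adjusted p = 2.58e-07), and Vegfa by 1.27 (SE 0.252, adjusted p = 0.000708), while Pfkfb4 fell by 1.26 (SE 0.169, adjusted p = 2.38e-05). The most abundant list members, Aldoa and Eno1, were at 1280 ± 51.7 and 1300 ± 86.2 CPM in Vehicle (n = 5) and 1600 ± 88.3 and 1450 ± 126 CPM in Combo (n = 5), of which Aldoa passed. Against the mean of the list, Car9 had r = 0.36 and Car4 r = 0.82. After group means were removed these were 0.329 and 0.495. With the endothelial list Car9 had r = -0.461 (-0.718 after group means were removed), and the part of these cells in the Car9 levels was not tested.

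Carbonic anhydrases work beside transporters that carry their substrates and products across the membrane. Of 27 genes for bicarbonate, acid and lactate transport, 21 were tested. In PI3Ki against Vehicle 0 were called with edgeR, 1 with DESeq2 and 0 with limma voom, and 5 had an unadjusted p under 0.05. In Combo against Vehicle 4 rose and 5 fell, with a list median of -0.07, a share called that is close to the 43.6% of all genes. The water channel Aqp1 rose by 0.93 (SE 0.28, adjusted p = 0.0129) and Bsg, chaperone of the lactate carriers, by 0.31 (SE 0.0862, adjusted p = 0.0083). The lactate exporter Slc16a3 fell by 1.80 (SE 0.3, adjusted p = 0.000164) and Slc4a11 by 1.51 (SE 0.269, adjusted p = 0.000279). The sodium-bicarbonate cotransporter Slc4a4 was higher in SHP2i than in PI3Ki by 0.76 (SE 0.132, adjusted p = 0.000716) and fell by 0.60 in Combo relative to SHP2i (SE 0.124, adjusted p = 0.00279). Over the 18 tumors Car2 had r = 0.596 with the mean of this list (0.859 after group means were removed). Car4 had r = -0.366 (0.513) and Car14 r = -0.402 (-0.495).

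The promoter sequences of Car4, the member with the largest differences, and of Car9, the hypoxia target, are shown to give the letters behind these names. They are the 250 bases before the gene start from RefSeq (GRCm38.p6, plus strand in both), at chr11:84957504-84957753 and chr4:43506776-43507025. Capitals mark motif letters on either strand, CCGGAAG in Car4 (ETS core, here on the minus strand) and TGAGTCA (AP-1) and ACGTG (hypoxia response core, minus strand) in Car9.
Car4: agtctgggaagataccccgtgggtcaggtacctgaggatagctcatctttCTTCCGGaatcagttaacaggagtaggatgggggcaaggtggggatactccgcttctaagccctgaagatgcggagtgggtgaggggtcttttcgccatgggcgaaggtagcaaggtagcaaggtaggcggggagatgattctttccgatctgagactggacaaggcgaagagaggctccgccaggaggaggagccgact
Car9: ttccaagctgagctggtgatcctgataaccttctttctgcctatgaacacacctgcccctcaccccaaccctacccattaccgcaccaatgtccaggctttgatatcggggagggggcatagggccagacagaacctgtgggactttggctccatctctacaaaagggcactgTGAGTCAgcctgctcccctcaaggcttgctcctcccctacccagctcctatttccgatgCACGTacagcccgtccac

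The RefSeq table held 6 of the 10 members, Car4, Car5b, Car6, Car9, Car12 and Car14. ACGTG or GCGTG on either strand was found in 38.6% of 32851 promoters of the same length and in 4 of the 6 members, Car5b, Car6, Car9 and Car14. CCGGAAG was found in 6.91% of promoters and in Car4, at -200 to -194 from the start, and TGACTCA or its reverse complement TGAGTCA in 4.46% of promoters and in Car9, at -77 to -71. GTAAACA, the FOXO core, was found in 3.17% of promoters and in 0 of the 6 members. For Car4 and Car5b the bases after the RefSeq start were not found in the reference transcripts.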

How the data were processed

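In all, 18 whole tumors were profiled, and groups were taken from the sample titles. The authors isolated poly(A) RNA, prepared directional libraries, trimmed reads with cutadapt, aligned them with STAR to GRCm38 in a double-pass run, and QuasR (qCount) gave the gene counts. What was deposited are raw counts, without normalization. The submitters' processing notes also name hg19. Tool versions, the gene annotation and the strand setting are not given in the sources used here. Balb/c reads were aligned to a C57BL/6J reference, which can lower counts of divergent genes.

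From the counts, edgeR 4.0.16 in R 4.3.3 was used with TMM scaling, filterByExpr (minimum count 10, minimum total count 15; 15282 genes kept), and a quasi-likelihood F test with 1 mean per group over all 18 tumors, adjusted by Benjamini-Hochberg over all genes tested. Differences are log2 fold changes, and a gene was called at an adjusted p under 0.05. Intervals use 14 residual degrees of freedom. Correlations use log2 CPM with a prior count of 2, are descriptions, and carry no p because tumors share treatments and tissue content. Genes without a symbol (32) held 0.0193% of the counts. Total counts per tumor were 21.16 M to 26.62 M.

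All 10 members were named, and for each tested member the 5 genes with the highest Pearson r. From each gene list the most abundant members and those that moved with a result were named. Members and lists were chosen with earlier results of these data known. The deviations of same-numbered tumors from their group means had a mean r of 0.016 over 24 pairs, 10 above 0.1. Pairs with different numbers had a mean r of -0.004 over 97 pairs, 30 above 0.1, so the numbers were not treated as pairs. Alternatives were DESeq2 1.42.0, limma 3.58.1 voom with quality weights, and RLE and upper quartile scaling. Limma voom here always means the form with quality weights, which gives each tumor its own weight, unlike voom alone. Further alternatives were other filters on low counts, compared groups alone, a replicate block, and each tumor left out. Leaving out Combo 3 and 4 together was added after seeing the data. The script was tested on simulated data. Separate mice are implied but not stated by the labels, and p-values measure the spread between these samples.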

Additional observations from a re-analysis of the deposited data

Results flagged for a closer look

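Car9 in Vehicle 3 stood apart from its group. It was at 20.8 CPM, where the other Vehicle tumors were at 27.6 to 29.5 CPM, a gap to the nearest tumor large for the range of 5 samples. Among 36 sets of a member and a group, this was the only tumor to stand apart, and chance gives about 1 in 20 such sets.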

How the results depend on the processing

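The number of members called in PI3Ki against Vehicle was 1, and it was 2 with DESeq2, 3 with limma voom, 2 with the compared groups alone, 0 with a replicate block, 2 without Combo 3 and 4 together, and 0 to 2 without single tumors. In SHP2i against Vehicle it was 4 with limma voom and 2 with the groups alone (1 to 2 without single tumors), and in Combo against Vehicle 2 with limma voom. In Combo against PI3Ki it was 0 with the groups alone, 1 with a replicate block and 1 without Combo 3 and 4 together (0 to 2 without single tumors). In Combo against SHP2i it was 0 with no filter on low counts, 0 with a replicate block and 0 without Combo 3 and 4 together (0 to 1 without single tumors), and in SHP2i against PI3Ki 1 with a replicate block (1 to 2 without single tumors). Counts above 0 against Vehicle include Car4, from which nothing is read there. The exception is the 3 with limma voom in PI3Ki, which were Car2, Car5b and Car9. The cause of these changes was not tested.

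Car4 in Combo against PI3Ki was 1.25 with the groups alone (adjusted p = 0.088), 1.26 with the replicate block (0.0832) and 1.17 without Combo 3 and 4 together (0.0556), and 0.98 to 1.56 without single tumors (adjusted p 0.0182 to 0.0994). The block ended that Car4 call and the Car5b calls in Combo against SHP2i (0.65, 0.0811) and SHP2i against PI3Ki (-0.69, 0.0846), and, Car4 against Vehicle aside, no other call. The numbers do not pair the tumors: 5 of 18 were most alike to a tumor of another group with their own number.

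Reversed signs occurred only in values that passed no test. With the replicate block Car3 in PI3Ki against Vehicle was -0.03. Without Combo 3 and 4 together, Car2 (-0.32) and Car8 (-0.16) in Combo against Vehicle and Car14 (-0.02) in Combo against PI3Ki changed sign. With upper quartile scaling Car8 in Combo against Vehicle was -0.01 and Car12 in Combo against PI3Ki -0.02. With limma voom Car14 was -0.01 in Combo against Vehicle and -0.01 in Combo against PI3Ki. Without single tumors the ranges crossed 0 in PI3Ki against Vehicle for Car3 (-0.28 to 0.27), Car12 (-0.04 to 0.13) and Car14 (-0.01 to 0.12), in SHP2i against Vehicle for Car9 (-0.07 to 0.42), in Combo against Vehicle for Car2 (-0.26 to 0.33), Car8 (-0.20 to 0.25) and Car13 (-0.01 to 0.15), in Combo against PI3Ki for Car5b (-0.29 to 0.04), Car8 (-0.53 to 0.02), Car9 (-0.50 to 0.10), Car12 (-0.07 to 0.11) and Car14 (-0.05 to 0.19), in Combo against SHP2i for Car3 (-0.70 to 0.05) and Car9 (-0.02 to 0.45), and in the interaction for Car3 (-0.71 to 0.11) and Car5b (-0.01 to 0.35).

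Over all genes the count of calls moved by more than 1.5 times from 781 in PI3Ki against Vehicle (1245 with DESeq2, 1902 with limma voom), from 1772 in SHP2i against Vehicle (4887 with limma voom, 3192 with the groups alone), from 3375 in Combo against SHP2i (2212 with the groups alone) and from 378 in the interaction (766 with DESeq2, 200 with the block). Leaving out single tumors moved it by as much in 4 of 18 fits of PI3Ki against Vehicle (lowest 448, without Vehicle 4), 4 of SHP2i against Vehicle (lowest 1003, without Vehicle 2), 1 of Combo against SHP2i (2204, without SHP2i 2) and 12 of the interaction (149 without SHP2i 4 to 605 without Combo 1), so the shares over all genes move likewise. Depth limits the statements on Car6 and Car8.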
